A study of Mus musculus with 27 samples.

Results

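ON bipolar cells are the retinal interneurons that depolarize when light reaches the photoreceptors. Their genes were taken here as a list of 10 symbols, namely Grm6, Trpm1, Nyx, Lrit3, Gpr179, Rgs11, Pcp2, Prkca, Cabp5 and Isl1. All 10 were found among the 40129 genes of the deposited table, and all 10 were among the 27137 genes tested. The data are RNA sequencing of whole retinas of wildtype (WT) C57BL/6 mouse pups (C57BL/6J in the methods of the study) from the oxygen-induced retinopathy (OIR) model, in which pups breathe a high oxygen level and are then returned to room air. Retinas were collected at postnatal day 14 (p14), the phase of retinal hypoxia, or at p17, the phase of retinal neovascularization. Controls (nOIR) of the same strain, genotype and ages never left room air. The comparisons used 6 OIR and 6 nOIR mice at p14 and 8 OIR and 6 nOIR mice at p17, 1 library per mouse, and a 7th nOIR p14 mouse (S4), which the study left out as an outlier, was left out here as well. A library held 1 or both retinas of a pup and the mice of a group came from a few litters, fewest for nOIR p17. Which mice shared a litter is not known here, so the p-values measure the spread between mice of a group taken as independent.

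In darkness, photoreceptors release glutamate, which binds the receptor mGluR6 on the dendrites of ON bipolar cells and, through a G protein, keeps the cation channel TRPM1 closed. In light, glutamate release drops, regulators of G protein signalling end the signal, and the channel opens. Loss of function of GRM6, TRPM1, NYX, LRIT3 or GPR179 is a known cause of congenital stationary night blindness, in which the ON response fails. The list holds genes that act in this signalling at the synapse, together with transcripts that are used to recognize rod bipolar cells and other ON bipolar cells.

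The promoters of Cabp5, Trpm1 and Isl1 are shown because these members were lower in OIR p17 retinas than in both nOIR p17 and OIR p14 retinas, with values given further on. The sequences are from RefSeq, build GRCm38.p6, and each line gives the 250 bases before the listed start of the gene, read 5′ to 3′ on the strand of the gene. Capitals mark the letters TAATCC, the core recognized by the homeodomain factors CRX and OTX2, and CAGATG, a form of the E-box recognized by basic helix-loop-helix factors, on either strand. The Cabp5 sequence is chr7:13397905-13398154 (plus strand), the Trpm1 sequence is chr7:64153585-64153834 (plus strand, the first of its listed starts), and the Isl1 sequence is chr13:116309689-116309938 (minus strand).
Cabp5: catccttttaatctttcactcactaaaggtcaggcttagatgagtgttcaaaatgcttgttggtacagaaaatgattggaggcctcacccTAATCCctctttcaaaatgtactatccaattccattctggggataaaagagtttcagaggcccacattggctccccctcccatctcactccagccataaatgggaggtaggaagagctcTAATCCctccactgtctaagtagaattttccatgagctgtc
Trpm1: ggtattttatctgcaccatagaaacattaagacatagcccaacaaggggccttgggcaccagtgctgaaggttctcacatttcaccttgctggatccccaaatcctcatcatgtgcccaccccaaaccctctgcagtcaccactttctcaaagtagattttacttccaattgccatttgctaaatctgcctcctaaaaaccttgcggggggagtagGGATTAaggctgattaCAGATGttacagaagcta
Isl1: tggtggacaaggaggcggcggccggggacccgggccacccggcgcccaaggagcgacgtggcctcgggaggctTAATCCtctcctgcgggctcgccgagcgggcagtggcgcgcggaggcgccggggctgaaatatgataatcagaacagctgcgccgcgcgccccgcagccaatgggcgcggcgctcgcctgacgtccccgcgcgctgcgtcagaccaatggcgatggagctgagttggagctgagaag

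Promoters of 9 of the 10 members were matched by symbol, and that of Rgs11 was not. In windows of 300 bases around the start, TAATCC was found on either strand for 3 of the 9 members, namely Cabp5 at -160 and -41, Trpm1 at -34 on the opposite strand, and Isl1 at -177, counted from the start. The share of all 32851 RefSeq promoter windows of the same length with these letters was 7.06%. CAGATG was found for 3 of the 9 members, namely Trpm1, Pcp2 and Gpr179, against 17.2% of all windows. Some members have several listed starts, and of the 13 windows of the 9 members 3 (23.1%) held TAATCC and 4 (30.8%) held CAGATG. The 2 motifs did not overlap in any of these windows. A match is a description of the letters, and whether any factor binds there was not measured.

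Recovered totals ranged from 17029536 to 33593428 reads over the 27 mice of the table, with a median of 30024568, and no 2 libraries of a group were copies of each other. Values are normalized reads, that is, counts divided by a size factor for each mouse, and a level between genes is compared only per kilobase of exon. The exon length is the union of all annotated exons of a gene, so the order of levels between genes depends on this choice. Each mouse also differed in how its reads depended on gene length. The slope of its log2 deviation from the mean profile on log2 exon length, called the length slope here, ranged from -0.07 to 0.15 in nOIR p14, from -0.05 to 0.10 in OIR p14, from -0.06 to 0.12 in nOIR p17 and from -0.20 to 0.18 in OIR p17 mice. Lens genes varied within every group, with summed levels of 5 lens markers from 197 to 7770.4 normalized reads in nOIR p17 and from 218 to 22576 in OIR p17 mice.

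In the nOIR p17 retina, the order of mean levels per kilobase was Cabp5 (1686 ± 89.5, SD, n = 6), Pcp2 (1526 ± 185), Isl1 (1170 ± 84.3), Trpm1 (999 ± 58.2), Rgs11 (828.7 ± 155), Grm6 (816 ± 80.8), Prkca (679 ± 90.5), Gpr179 (293 ± 24.6), Lrit3 (176 ± 14.8) and Nyx (112 ± 10.1). The ranges of neighbours in this order overlapped except between Pcp2 and Isl1, between Prkca and Gpr179, between Gpr179 and Lrit3, and between Lrit3 and Nyx. Bipolar cell transcripts were thus present in every library, and no member was at 0 in any mouse. In OIR p17 mice, Pcp2 came first at 1438 per kilobase, Rgs11 moved up to 1125 and Cabp5 followed at 1057, with overlapping ranges.

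At p14, Grm6 was the only ON bipolar cell gene that differed between OIR and control retinas past the threshold. It was lower in OIR mice, and 1 member called lower of 10 stands beside 2.91% of all genes tested that were called lower. The threshold was an adjusted p under 0.05 by limma with Benjamini-Hochberg adjustment over all genes tested, without a minimum fold change. Of the 12920 genes whose mean was 100 normalized reads or more, a level that every member exceeds, 9.53% were called in either direction. No member was called higher by limma, edgeR or DESeq2, where 3.18% of all genes were by limma. Without adjustment, 3 members had a p under 0.05 (limma), of which Grm6 and Nyx were lower and Rgs11 higher. The share of all genes under an unadjusted threshold is not given here for any comparison, so such numbers have no background beside them. Because whole retinas were sequenced, fewer cells of a type and less RNA per cell cannot be told apart in any of these values. The median log2 fold change of the members was -0.15, that of all genes tested was 0.02, and 8 of the 10 members were below 0. For no member were the OIR p14 and nOIR p14 mice fully apart, which was the case for 1.86% of all genes in the lower and 1.91% in the higher direction.

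At p17, 6 members fell in OIR retinas by the same test, namely Cabp5, Nyx, Trpm1, Prkca, Grm6 and Isl1, and Rgs11 rose. Of all genes tested, 5.12% were called lower and 7.39% higher at p17. Among the same 12920 genes, 18.7% were called in either direction. On the scale of the fit, Isl1 fell by 20.9% and Nyx fell by 46.6%, with the other 4 in between. No member also passed the minimum size that the study set, a log2 fold change past 2 in either direction, which 0.173% of all genes did downwards and 1.9% upwards. The median log2 fold change of the members was -0.41 against -0.02 for all genes, and 9 of 10 members were below 0. When each mouse was rescaled to the same total, the genes called at p17 numbered 2406 higher and 964 lower in place of 2005 and 1390, and 4 members were called lower, without Grm6 and Prkca, and 1 higher. With quantile normalization, 1899 genes were called higher and 1447 lower at p17. Cabp5 and Nyx were then the 2 members called lower, and Trpm1 and Isl1 each had an adjusted p of 0.0594 (limma). At p14, rescaling gave 1019 genes higher and 609 lower in place of 862 and 790, and no member was called. The summed level of the 10 genes was 41913 to 47976 normalized reads in nOIR p17 and 29248 to 40057 in OIR p17 mice, apart, and 40824 to 51065 in nOIR p14 and 35687 to 45978 in OIR p14 mice, overlapping. In 4 members, Trpm1, Nyx, Cabp5 and Isl1, every OIR p17 mouse lay below every control, as was the case for 1.98% of all genes, and in none did every OIR p17 mouse lie above (3.9% of all genes).

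**Figure D1:**
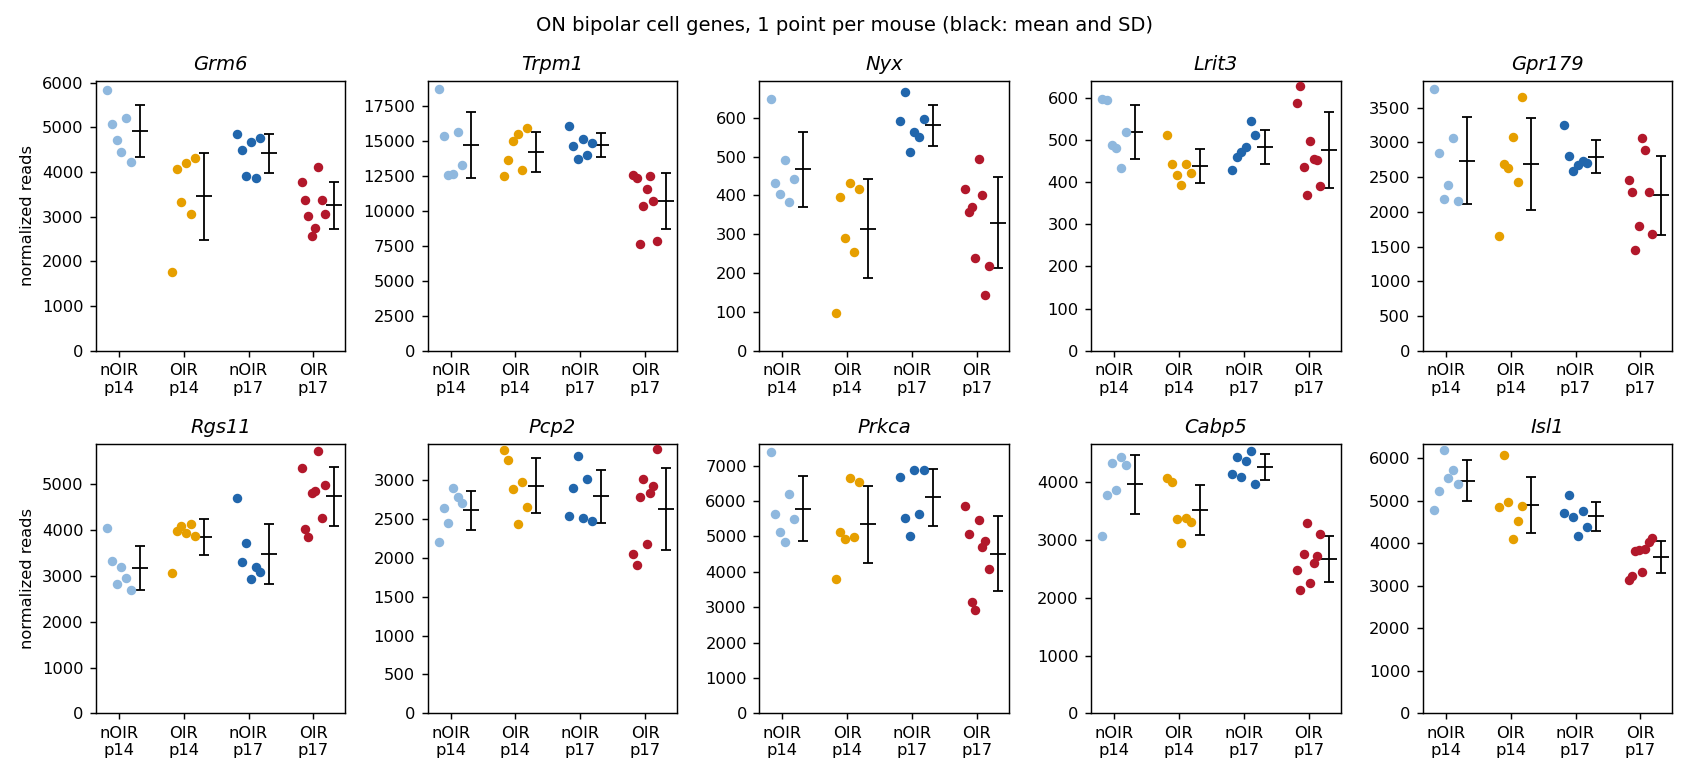
Normalized reads of the 10 ON bipolar cell genes (vertical axis, linear from 0) in the 4 groups, with 1 point per mouse and the mean and SD in black. Cabp5, Trpm1, Nyx and Isl1 of the 8 OIR p17 mice lie below all 6 nOIR p17 mice, and OIR p14 mouse S1 is the low point of Grm6 (1760) and Nyx (97.9).

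**Figure D2:**
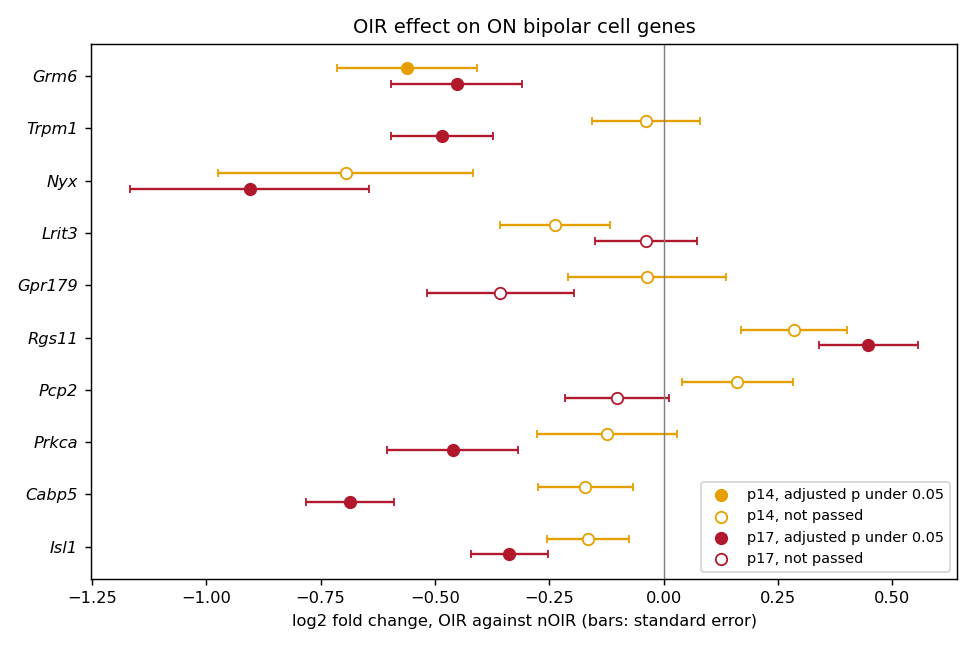
Log2 fold change of OIR against nOIR mice for each of the 10 genes at p14 and p17 (horizontal axis), with bars for the standard error and filled points for an adjusted p under 0.05. At p17, 6 genes are filled below 0 and Rgs11 above 0, and at p14 only Grm6 is filled.

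Grm6 encodes mGluR6, the glutamate receptor that starts the ON response. In nOIR p14 mice it had 4219, 4894 and 5832 normalized reads (lowest, median and highest), and in OIR p14 mice 1760, 3692 and 4315. At p17 the values were 3857, 4578 and 4856 in nOIR and 2558, 3218 and 4105 in OIR mice. The groups overlapped at both ages, with 5 of 6 OIR p14 mice and 7 of 8 OIR p17 mice below all controls of their age. The log2 fold change was -0.56 (SE 0.15) at p14 and -0.45 (SE 0.14) at p17, with an adjusted p of 0.0237 and 0.0342 (limma, Benjamini-Hochberg). Both calls were close to the threshold. Without OIR p14 mouse S1 the p14 value was -0.38 with an adjusted p of 0.051, and without nOIR p14 mouse S1 or S6 or OIR p14 mouse S5 the adjusted p was also above 0.05. At p17 the adjusted p was 0.0559 when all genes above 0 were tested, and it lay between 0.051 and 0.0769 without any one of nOIR p17 mice S1, S2, S4 and S6 or OIR p17 mice S3, S4, S5 and S8.

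Trpm1 encodes the cation channel that mGluR6 keeps closed. In nOIR p17 mice it had 13687, 14729 and 16069 normalized reads (lowest, median and highest), and in OIR p17 mice 7614, 11166 and 12569. At p14 the values were 12603, 14299.5 and 18740.1 in nOIR and 12482, 14305 and 15909.5 in OIR mice. The groups were apart at p17 and interleaved at p14. The log2 fold change was -0.48 (SE 0.11, adjusted p = 0.00245) at p17 and -0.04 (SE 0.12, adjusted p = 0.931) at p14 (limma, Benjamini-Hochberg). The 2 lowest OIR p17 mice, S3 (7614) and S8 (7816), had length slopes of -0.18 and -0.20, the lowest of all 26 mice. With the length slope as a covariate, the p17 value was -0.38 (adjusted p = 7.6e-05), still past the threshold.

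**Figure D3:**
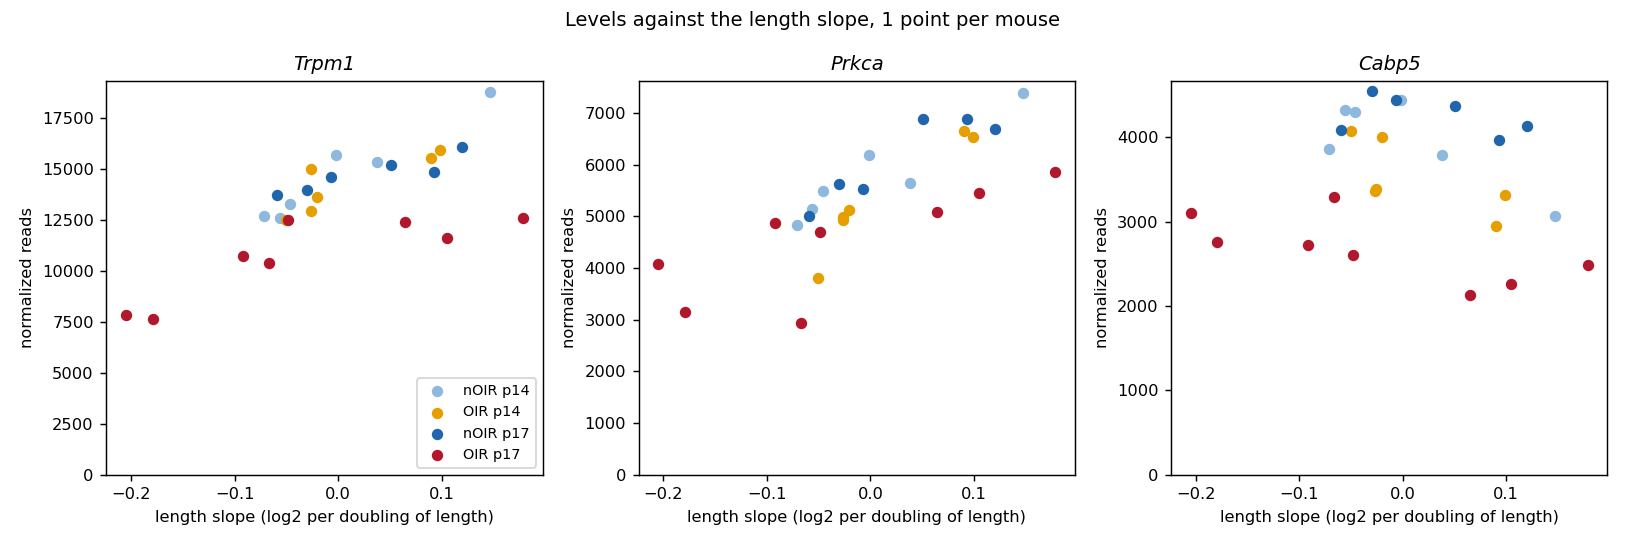
Normalized reads of Trpm1, Prkca and Cabp5 (vertical axes, linear from 0) against the length slope of each mouse (horizontal axis, log2 units per doubling of exon length), with 1 point per mouse coloured by group. Trpm1 and Prkca are higher in mice with a higher slope. Cabp5 of OIR p17 mice is lower in those with a slope above 0 (S1, S2 and S5) than in the others. The slopes of OIR p17 mice S3 and S8 lie below those of all controls.

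Nyx and Lrit3 encode leucine-rich repeat proteins of the synapse that are needed to place TRPM1 at the dendritic tips. Nyx had 513, 578 and 667 normalized reads in nOIR p17 mice (lowest, median and highest) and 143, 364 and 494 in OIR p17 mice, so that the groups were apart. At p14 the values were 384, 438 and 648 in nOIR and 97.9, 344 and 432 in OIR mice. The spread between OIR mice was wide, with a coefficient of variation of 35.8% at p17 against 8.97% in controls. The log2 fold change was -0.91 (SE 0.26, adjusted p = 0.0179) at p17 and -0.70 (SE 0.28, adjusted p = 0.167) at p14 (limma, Benjamini-Hochberg). Without OIR p14 mouse S1 the p14 value was -0.39 (adjusted p = 0.429). Lrit3, in contrast, had 429, 477 and 545 normalized reads in nOIR p17 and 368, 453 and 627 in OIR p17 mice. Its log2 fold change was -0.04 (SE 0.11, adjusted p = 0.895, limma) at p17, and some OIR mice lay below and others above all controls. At p14, Lrit3 had a value of -0.24 (SE 0.12, adjusted p = 0.313, limma). Which cells of the synapse the Lrit3 reads came from was not tested.

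Gpr179 and Rgs11 act at the end of the signal. GPR179 is an orphan receptor that holds the regulators of G protein signalling at the dendritic tip, and RGS11 is one of these regulators, which speed up the hydrolysis of GTP by the G protein. Rgs11 was the one member that rose. It had 2923, 3251 and 4705 normalized reads in nOIR p17 mice (lowest, median and highest) and 3856, 4827 and 5727 in OIR p17 mice, and 5 of 8 OIR mice lay above all controls. This was a log2 fold change of 0.45 (SE 0.11, adjusted p = 0.00426, limma) at p17. At p14 it was 0.28 (SE 0.12, adjusted p = 0.177, limma), with 2682, 3073 and 4035 normalized reads in nOIR and 3069, 3956 and 4128 in OIR mice. Gpr179 did not pass the test at either age. It had 2594, 2714 and 3252 normalized reads in nOIR p17 mice and 1448, 2291 and 3059 in OIR p17 mice, with a log2 fold change of -0.36 (SE 0.16, adjusted p = 0.167, limma). Of the OIR p17 mice, 6 of 8 lay below all controls. At p14 its value was -0.04 (SE 0.17, adjusted p = 0.959, limma).

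Prkca encodes protein kinase C alpha, the usual marker of rod bipolar cells, and Pcp2 encodes a modulator of G proteins found in rod and some cone ON bipolar cells. Prkca had 5014, 6157 and 6890 normalized reads in nOIR p17 mice (lowest, median and highest) and 2936, 4786 and 5865 in OIR p17 mice. All 8 OIR mice lay below the median of the controls and 5 lay below all of them. Its log2 fold change was -0.46 (SE 0.14, adjusted p = 0.0297, limma) at p17 and -0.12 (SE 0.15, adjusted p = 0.781, limma) at p14. The p17 call was lost without nOIR p17 mouse S1, S4 or S6 or OIR p17 mouse S3 or S4, with an adjusted p of 0.0666 to 0.0772. Pcp2 had 2469, 2718 and 3305 normalized reads in nOIR p17 and 1912, 2801 and 3389 in OIR p17 mice, which were interleaved. Its log2 fold change was -0.10 (SE 0.11, adjusted p = 0.667, limma) at p17 and 0.16 (SE 0.12, adjusted p = 0.568, limma) at p14. With the length slope as a covariate, the p17 value of Pcp2 was -0.21 (adjusted p = 0.023, limma), past the threshold. That of Grm6 was -0.38 (adjusted p = 0.052, limma), no longer past it. In this fit, 2267 of all genes tested were called higher and 2227 lower at p17, in place of 2005 and 1390.

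Cabp5 encodes a calcium-binding protein of rod bipolar cells and some cone bipolar cells, and its p17 call had the smallest adjusted p of all members. It had 3971, 4250 and 4547 normalized reads in nOIR p17 mice (lowest, median and highest) and 2132, 2664 and 3290 in OIR p17 mice. At p14 it had 3063, 4083 and 4443 normalized reads in nOIR and 2953, 3373 and 4071 in OIR mice. The groups were apart at p17 and overlapped at p14, where nonetheless all 6 OIR mice lay below the median of the controls. On the log2 scale, Cabp5 was at -0.69 (SE 0.10, adjusted p = 4.64e-06, limma) at p17 and -0.17 (SE 0.10, adjusted p = 0.439, limma) at p14. Isl1 encodes a LIM homeodomain transcription factor of ON bipolar cells that is also made by ganglion cells and starburst amacrine cells. It had 4163, 4673 and 5133 normalized reads in nOIR p17 and 3149, 3837 and 4127 in OIR p17 mice, which were apart. For Isl1 the log2 fold change was -0.34 (SE 0.08, adjusted p = 0.00515, limma) at p17 and -0.17 (SE 0.09, adjusted p = 0.361, limma) at p14. Ganglion and amacrine markers were also lower at p17, and which cells the Isl1 reads came from was not tested. Which bipolar cells the Cabp5 reads came from was not tested either.

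Whether the effect of OIR on these genes differed between the 2 ages was tested as a difference of the effects in the same fit. No member passed by limma or edgeR, where 0.147% of all genes were called more negative and 1.43% more positive at p17 by limma. Without adjustment, 2 members (Trpm1 and Cabp5) had a p under 0.05 (limma), again without a share of all genes beside it. Cabp5 came closest, with a difference of -0.51 (SE 0.14, adjusted p = 0.0607, limma), followed by Trpm1 with -0.45 (SE 0.16, adjusted p = 0.236). For Cabp5 the result depended on the settings. The adjusted p was 0.0445 when the tested genes had to reach a mean of 10 normalized reads, 0.0349 with nOIR p14 mouse S4 and 0.0283 by DESeq2, which called 1 member. It was also below 0.05 without OIR p14 mouse S4, OIR p17 mouse S4 or OIR p17 mouse S8. For Grm6 the difference was 0.11 (SE 0.21, adjusted p = 0.908, limma), and for Nyx it was -0.21 (SE 0.38, adjusted p = 0.901). An interval of about 2 SE on either side ran from -0.30 to 0.52 for Grm6 and from -0.96 to 0.54 for Nyx, so these values do not show that the effect was the same at both ages. The Nyx difference was -0.51 without OIR p14 mouse S1 and -0.05 without OIR p17 mouse S7.

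Changes with age were read within each treatment. From p14 to p17, no member changed in nOIR retinas by limma with Benjamini-Hochberg adjustment, beside 0.158% of all genes called lower and 0.158% called higher. No member was called by edgeR, beside 47 of all genes tested called lower and 44 higher. The same held for DESeq2, beside 127 called lower and 109 higher. The value nearest to the threshold was that of Isl1 at -0.24 (SE 0.09, adjusted p = 0.407), the only member with an unadjusted p under 0.05, and 5 of 6 nOIR p17 mice lay below all nOIR p14 mice. In OIR retinas, 3 members fell from p14 to p17, beside 1.81% of all genes called lower, and none rose, beside 4.11% called higher. They were Isl1 at -0.41 (SE 0.08, adjusted p = 0.00189), Cabp5 at -0.40 (SE 0.10, adjusted p = 0.00913) and Trpm1 at -0.43 (SE 0.11, adjusted p = 0.0148). In all of them the groups overlapped, whereas 0.387% of all genes were lower in every OIR p17 than in every OIR p14 mouse, with 7 of 8 OIR p17 mice below all OIR p14 mice for Trpm1 and for Isl1 and 6 of 8 for Cabp5. When only the compared groups entered the fit, the adjusted p of Trpm1 was 0.0632. Grm6 was at -0.04 (SE 0.14, adjusted p = 0.92, limma) over the same interval, with a mean of 3453 ± 972 (SD, n = 6) normalized reads in OIR p14 and 3252 ± 517 (SD, n = 8) in OIR p17 mice. Rgs11 was at 0.29 (SE 0.11, adjusted p = 0.118, limma), and with the length slope as a covariate at 0.33 with an adjusted p of 0.0376. The same covariate also took Pcp2 past the threshold, at -0.25 (adjusted p = 0.0128, limma), so that 4 members were called lower. In that fit, 1433 of all genes tested were called higher and 1075 lower, in place of 1114 and 491. The OIR mice of these comparisons are the same as those set against controls above, so the results are not independent of each other.

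Other genes of the same cascade moved in both directions at p17, with 3 of 6 called lower and 1 higher by limma. Rgs7, the partner of Rgs11 in ending the mGluR6 signal, fell from 2865 ± 240 (SD, n = 6) to 1842 ± 168 normalized reads (SD, n = 8), a log2 fold change of -0.64 (SE 0.08), and had the same value of -0.64 at p14. Gng13, a G protein gamma subunit of ON bipolar cells, was at -0.76 (SE 0.19) at p17. Gnb3, a G protein beta subunit that cones also make, rose at both ages, by 0.51 at p14 and 0.44 at p17. Thus Rgs7 fell and Rgs11 rose in the same OIR p17 retinas. On the photoreceptor side of this synapse, 1 of 8 genes passed at p17, namely Dag1 (dystroglycan) at 0.35 (SE 0.10), and none at p14.

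Among 5 other transcripts of rod bipolar cells, 4 fell at p17 and 2 at p14. Gabrr2 and Gabrr1, the GABA-C receptor subunits of bipolar terminals, were lower at both ages, with -0.57 (SE 0.08) and -0.46 (SE 0.07) at p17 and -0.56 and -0.41 at p14. Car8 was at -0.39 (SE 0.10) at p17 and -0.04 at p14, where it was not called. OFF cone bipolar genes, which mark the cells that respond to light decrements, were also lower, with 6 of 8 called at p17 and 3 of 8 at p14. Grik1, their kainate receptor subunit, was at -0.77 (SE 0.07) and Tacr3 at -0.995 (SE 0.111) at p17. Of the other bipolar transcription factors reported here, Sebox was called lower at p17, at -0.43 (SE 0.10), whereas Otx2 (-0.14), Lhx4 (-0.05), Prdm8 (-0.85, SE 0.35) and Bhlhe23 (0.08) did not pass, and none of these 5 passed at p14. Lower levels were thus found among some bipolar genes outside the list and not among others. The median log2 fold change at p17 was -0.46 for OFF cone bipolar genes, -0.46 for the other rod bipolar transcripts and -0.29 for the bipolar transcription factors. That of the members was -0.41.

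Markers of other inner retinal cells moved with these values. At p17, 6 of 9 amacrine markers (Gad1 -0.62, Slc6a9 -0.79), 5 of 8 ganglion cell markers (Slc17a6 -0.57, Nefm -0.46) and 5 of 6 Müller glia markers (Aqp4 -0.86, Kcnj10 -1.02) were called lower and none higher. The summed amacrine markers were at 29069 to 32194 normalized reads in nOIR p17 and 20358 to 24128 in OIR p17 mice, and the summed Müller glia markers at 63904 to 74047 and 46439 to 64446. Of the photoreceptor markers, 3 of 8 rod genes were called lower (Sag -0.39) and 0 of 6 cone genes were called. Endothelial markers rose in 4 of 6 genes (Tie1 1.62) and microglia markers in 3 of 5 (Cx3cr1 1.62). Summed endothelial markers were at 6453 to 8551 normalized reads in nOIR p17 and 8952 to 12144 in OIR p17 mice, and summed microglia markers at 820 to 1023 and 1481 to 2254. No measured marker of these lists was at 0 in all mice of a group. At p14, endothelial markers had 1 gene called higher and 1 lower of 6, microglia markers 0 of 5, rod markers 2 of 8 lower, cone markers 1 of 6 lower, amacrine markers 3 of 9 lower, ganglion cell markers 3 of 8 lower and Müller glia markers 4 of 6 lower. The part of these shifts in the levels of the ON bipolar cell genes was not tested. Of the 5 lens markers measured, none was called at p14 or p17.

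**Figure D4:**
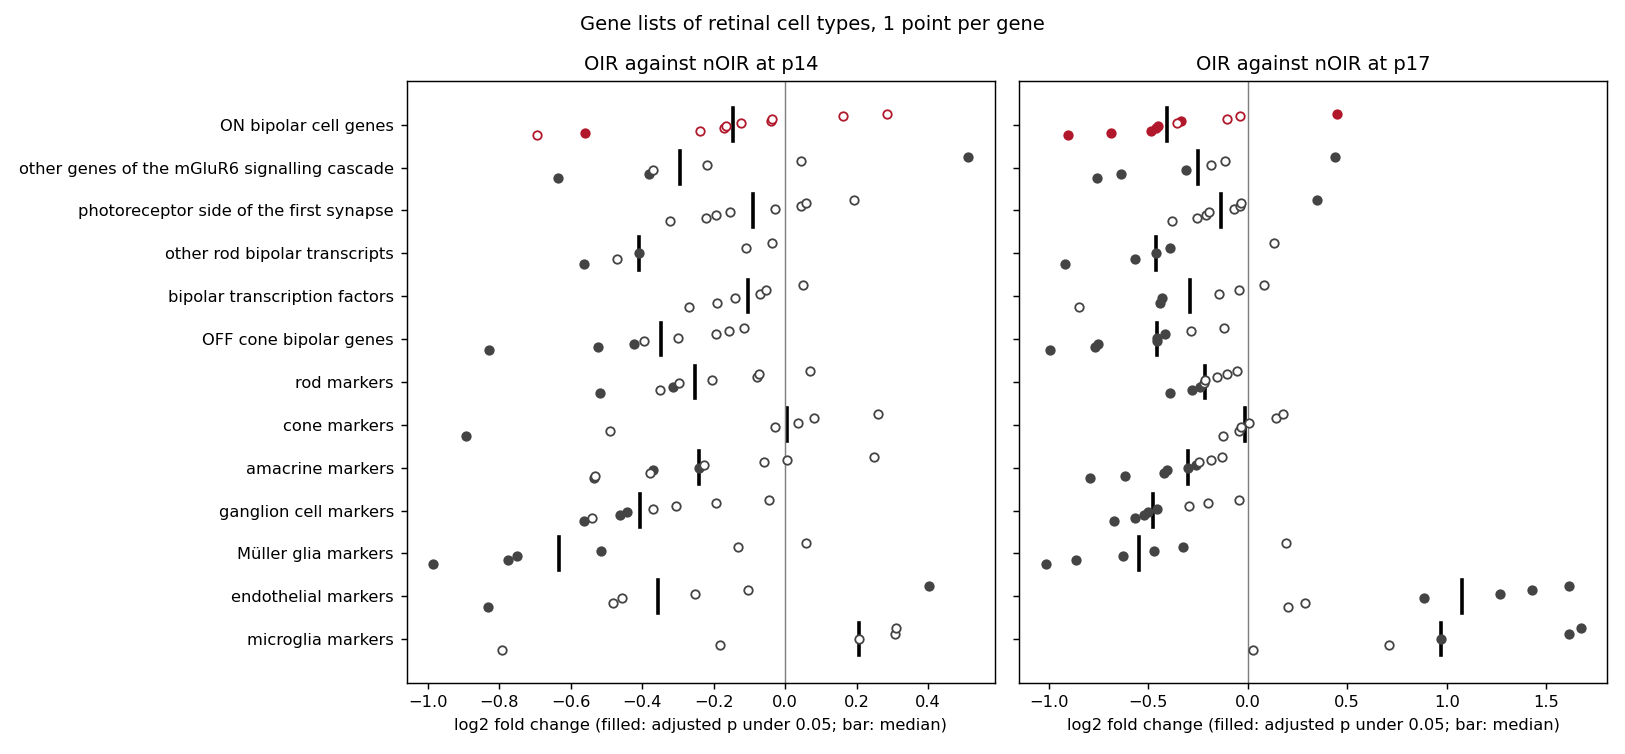
Log2 fold change of OIR against nOIR mice at p14 and p17 (horizontal axes) for the ON bipolar cell genes (red) and 12 other gene lists, with 1 point per gene, filled where the adjusted p is under 0.05, and a bar at the median of the list. At p17 the OFF cone bipolar, amacrine, ganglion cell and Müller glia lists lie mostly below 0 and the cone list on either side of it, with medians of -0.41 for ON bipolar cell genes and 0.97 for microglia markers and 1.08 for endothelial markers.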

How the data were processed

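Total RNA of whole mouse retinas was reverse transcribed with a SMARTer low input kit, which does not mark strand, and sequenced, so reads of overlapping genes on opposite strands cannot be told apart. Per the submitters' processing notes and the methods of the study, the authors used FastQC 0.73, STAR 2.7.8a, featureCounts 2.0.1, R 4.0.3 and DESeq2 1.34 with Gencode M28 annotation. The authors deposited a signal of normalized reads for each mouse, which are counts divided by a DESeq2 size factor. The authors' group means, log2 fold changes and adjusted p-values in the same table were not used. For 100% of the values, multiplication by 1 factor per mouse gave whole reads (tolerance 0.001), and of the 40129 genes 164 were at 0 in every mouse. PCR copies were not removed, so depth is in reads and not in molecules.

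Limma 3.58.1 (lmFit, eBayes with a trend, R 4.3.3) was fitted to log2 normalized reads with a pseudocount of 1, in 26 mice of 4 groups, for 27137 genes with a mean of at least 1. Benjamini-Hochberg adjustment ran over these genes, with a threshold of 0.05. The contrasts were OIR against nOIR at each age, the difference of both, and p17 against p14 within each treatment. The members and gene lists were chosen with earlier results of these data known. All members are named, and of each other list up to 3 genes with the smallest adjusted p of a contrast. As alternatives, the pseudocount was set to 0.1, the filter was dropped or raised to 10, mouse S4 was added, the compared groups were fitted alone, the replicate number was a block, mice were rescaled to 1 total or quantile normalized, and recovered reads were tested by edgeR 4.0.16 (quasi-likelihood) or DESeq2 1.42.0. Others were a threshold of 0.01 and the omission of each mouse in turn. The length slope and log2 Xist (a transcript of females) as covariates were added after the data were seen. The length slope used genes whose mean reached 100 normalized reads, 98.2% of which had a length. Exon lengths are from Gencode M21 (GRCm38), another release than that of the counts. Scripts were tested on simulated data. Tables and figures were made in Python 3.11.15 with numpy 2.4.6, pandas 2.3.3 and matplotlib 3.10.9. Protein sequences and human samples were not analysed here, and 1 gene of another list is not reported here.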

Additional observations from a re-analysis of the deposited data

Results flagged for a closer look

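Of 40 sets of values (10 genes in 4 groups, log2 scale), 3 held a mouse that stood apart from the rest of its group, where chance alone gives about 1 in 20. Nyx in OIR p14 mouse S1 had 97.9 normalized reads, and the other OIR p14 mice had 255 to 432. Rgs11 in the same mouse had 3069, and the others had 3876 to 4128. The same mouse was also the lowest of its group for Grm6 (1760), Trpm1 (12482), Gpr179 (1657) and Prkca (3807), and the highest for Lrit3 (512), Pcp2 (3385) and Cabp5 (4071). Gpr179 in nOIR p17 mouse S1 had 3252 normalized reads, and the other nOIR p17 mice had 2594 to 2810.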

How the results depend on the processing

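The number of members called lower at p14 (1) was 0 with the compared groups only, with rescaling to the same total and at an adjusted p under 0.01, and ranged from 0 to 1 when each mouse was left out, with 0 without nOIR p14 mouse S1 or S6 or OIR p14 mouse S1 or S5. The number called lower at p17 (6) was 2 with quantile normalization and 3 at an adjusted p under 0.01. It ranged from 4 to 6 when each mouse was left out. The share of all genes at an adjusted p under 0.01 is not given here for any comparison. The number for the difference of the effects (0) was 1 with a mean of at least 10, with mouse S4 or by DESeq2. It was 2 with the length slope as a covariate (Cabp5 and Pcp2), and ranged from 0 to 1 when each mouse was left out. Of all genes tested, 93 were called more negative at p17 with the length slope and 93 by DESeq2, in place of 40. The number called higher from p14 to p17 in OIR mice (0) was 1 with the length slope, and the number called lower (3) was 2 with the compared groups only and at an adjusted p under 0.01 (without Trpm1) and 4 with the length slope (with Pcp2).

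Mice of the same number were not treated as paired in the main fit. Of 34 same-number pairs, 7 had a correlation of their deviations over 0.1 (range -0.23 to 0.33). The highest was that of nOIR p14 mouse S1 with OIR p17 mouse S1. Pairs of different numbers were not compared, so whether mice of the same number belong together was not tested. With the replicate number as a block, 3 members were called lower at p17 (Cabp5, Trpm1 and Isl1). Of all genes tested, 1269 were called lower and 1890 higher at p17 in this fit, in place of 1390 and 2005. Nyx, Grm6 and Prkca had an adjusted p of 0.0972, 0.073 and 0.0555 at p17 (limma). In the same fit, Lrit3 at p17 was at 0.00403 and Nyx in the difference of the effects at 0.088. Trpm1 with age in nOIR mice was at -0.00694.

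Values that turned their sign were not called in either fit. Trpm1 at p14 was 0.00545 with rescaling and 0.027 with quantile normalization, Gpr179 at p14 was 0.00711 with rescaling, and Lrit3 at p17 was 0.029 with rescaling and 0.019 with the length slope. Trpm1 with age in nOIR mice was -0.035 with mouse S4, -0.030 with rescaling, -0.040 with quantile normalization, -0.035 with the length slope and -0.016 with log2 Xist. Gpr179 with age in nOIR mice was -0.00259 with mouse S4 and -0.010 with the length slope, and Grm6 with age in OIR mice was 0.012 with the length slope. When each mouse was left out, the range was -0.0804 to 0.0341 for Trpm1 and -0.13 to 0.095 for Gpr179 at p14, -0.098 to 0.012 for Lrit3 at p17 and -0.073 to 0.19 for Grm6 in the difference of the effects. With age it was -0.028 to 0.087 for Trpm1 and -0.0087 to 0.15 for Gpr179 in nOIR mice, and -0.22 to 0.035 for Grm6 and -0.18 to 0.28 for Nyx in OIR mice. The cause of these shifts was not tested. Nyx and Lrit3 had the fewest reads, with an SE at p17 of 0.26 and 0.11, against 0.08 to 0.16 for the other members, so that precision did not follow depth alone.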

Other observations

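Over the 26 mice, the 10 genes outside the list whose log2 profile lay closest to the mean profile of the ON bipolar cell genes were Kif1a, Rfng, Mtus2, Anks1b, Magee1, Spon1, Susd4, Runx1t1, Wdr6 and Slitrk3. Profiles were centred on the mean of each gene, and the root mean square difference from the members' mean profile was 0.102 to 0.129 on the log2 scale, where the median over the genes compared was 0.309 and a gene without any change would be at 0.182. The members themselves lay between 0.173 (Trpm1) and 0.503 (Nyx) from their own mean, and all except Trpm1 lay further from it than an unchanged gene. All 10 lay further than these other genes, which were picked as the closest of 12910 genes compared. Of those 12910 genes, 2.3% lay closer than Trpm1 and 86.0% closer than Nyx, with the other members in between. Kif1a, which encodes a kinesin motor of axons, was at -0.31 at p17 (adjusted p = 0.0213, limma). Wdr6 was at -0.43 (adjusted p = 0.00121, limma). The mean centred log2 level of the members was 0.10 to 0.24 in nOIR p17 and -0.34 to 0.01 in OIR p17 mice, without overlap, and 0.03 to 0.30 in nOIR p14 and -0.38 to 0.13 in OIR p14 mice, with overlap. In the left-out nOIR p14 mouse S4, Grm6 had 6482, Prkca 7978, Nyx 730 and Lrit3 713 normalized reads, each above all 26 mice of the comparisons, and Pcp2 had 1717, below all of them. Its length slope was 0.18.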
